A study of Homo sapiens with 6 samples.

Results

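Interferon-stimulated genes are the genes that cells switch on when an interferon signals to them, and 40 of them, given as a list, were followed in RNA-seq of 2 prostate cancer cell lines treated with inhibitors of the chaperone HSP70. All 40 were found among the 60658 Ensembl identifiers of the deposited tables, 39 by their current symbol and RIGI by its older symbol DDX58. Of the 40 genes, 37 had a value above 0.1 FPKM (the fragments of a gene, set in proportion to the length of its transcripts and to the size of the library) in at least 1 library, as did 23671 of all identifiers. C4-2B MDVR, a derivative of C4-2B selected for resistance to the androgen receptor antagonist enzalutamide and kept with 20 µM of it, and CWR22Rv1, kept without it, were treated for 48 h with DMSO, with apoptozole (APO, 10 µM) or with VER155008 (VER, 10 µM). Both compounds inhibit the ATPase activity of HSP70, and the comparison asks which genes respond to that inhibition. Each of the 6 conditions has a single library, so every difference below is between single libraries, has no replicate check and carries no p-value. The titles of the C4-2B MDVR libraries were followed, although other labels of the same libraries call the cells LNCaP-C4-2B and parental. The line and the enzalutamide in its medium cannot be told apart.

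Type I interferons bind the IFNAR1 and IFNAR2 receptor, whose kinases JAK1 and TYK2 phosphorylate STAT proteins. One of these, STAT2, joins IRF9 in the complex ISGF3, which binds the interferon-stimulated response element (ISRE). Interferon gamma acts through IFNGR1, IFNGR2, JAK1 and JAK2, and STAT dimers then bind the gamma-activated site (GAS). The induced proteins detect foreign RNA, block viral entry, translation or replication, conjugate the ubiquitin-like protein ISG15, or raise the response further, and in many cancers a set of them is expressed without an added interferon.

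The promoters of 6 genes of the list, picked by hand and not by a rule, are printed as examples of these elements. They are RefSeq windows of GRCh38.p14 from 250 bases before to 50 bases after the start of transcription, 5′ to 3′ on the strand of the gene, with capitals for a match to the core of the ISRE (GAAA, any 2 bases and GAAA, on either strand) or to the GAS (TTC, any 3 bases and GAA, which is its own reverse complement). ISG15 holds 2 overlapping ISRE matches (chr1:1013247-1013546, plus strand) and IFI6 (chr1:27672143-27672442, minus strand) holds 3. IFIT1 (chr10:89392373-89392672, plus strand) has 2 on the opposite strand. IFI35 (chr17:43006534-43006833, plus strand), IRF1 (chr5:132490724-132491023, minus strand) and OAS1 (chr12:112906712-112907011, plus strand) each hold a GAS match and no ISRE match as defined.
ISG15: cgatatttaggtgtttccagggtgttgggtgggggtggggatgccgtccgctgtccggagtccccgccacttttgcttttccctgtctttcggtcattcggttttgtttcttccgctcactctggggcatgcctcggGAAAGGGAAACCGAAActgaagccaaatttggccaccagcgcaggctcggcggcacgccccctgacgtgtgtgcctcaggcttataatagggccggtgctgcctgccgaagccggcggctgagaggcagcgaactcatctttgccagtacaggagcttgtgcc
IFI6: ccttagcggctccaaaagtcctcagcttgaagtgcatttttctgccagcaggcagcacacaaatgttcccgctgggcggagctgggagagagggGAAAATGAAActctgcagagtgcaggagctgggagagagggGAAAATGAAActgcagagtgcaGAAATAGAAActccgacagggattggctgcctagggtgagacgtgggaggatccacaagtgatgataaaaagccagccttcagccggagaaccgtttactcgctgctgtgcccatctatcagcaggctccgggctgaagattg
IFIT1: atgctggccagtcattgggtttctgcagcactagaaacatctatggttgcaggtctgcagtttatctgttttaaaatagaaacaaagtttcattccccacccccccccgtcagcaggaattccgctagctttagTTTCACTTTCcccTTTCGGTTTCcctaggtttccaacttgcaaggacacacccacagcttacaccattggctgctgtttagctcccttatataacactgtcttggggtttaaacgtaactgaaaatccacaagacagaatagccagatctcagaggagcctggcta
IFI35: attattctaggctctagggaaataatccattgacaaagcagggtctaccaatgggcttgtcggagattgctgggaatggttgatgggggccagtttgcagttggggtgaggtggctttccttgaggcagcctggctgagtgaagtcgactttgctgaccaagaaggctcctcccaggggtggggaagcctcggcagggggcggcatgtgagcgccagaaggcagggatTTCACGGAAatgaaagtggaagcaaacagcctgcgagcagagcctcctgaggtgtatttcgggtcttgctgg
IRF1: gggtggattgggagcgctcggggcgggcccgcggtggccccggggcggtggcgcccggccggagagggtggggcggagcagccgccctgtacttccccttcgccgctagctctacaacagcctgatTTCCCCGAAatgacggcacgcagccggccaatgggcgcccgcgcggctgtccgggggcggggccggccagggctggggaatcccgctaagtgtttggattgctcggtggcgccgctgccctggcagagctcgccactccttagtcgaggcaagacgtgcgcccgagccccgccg
OAS1: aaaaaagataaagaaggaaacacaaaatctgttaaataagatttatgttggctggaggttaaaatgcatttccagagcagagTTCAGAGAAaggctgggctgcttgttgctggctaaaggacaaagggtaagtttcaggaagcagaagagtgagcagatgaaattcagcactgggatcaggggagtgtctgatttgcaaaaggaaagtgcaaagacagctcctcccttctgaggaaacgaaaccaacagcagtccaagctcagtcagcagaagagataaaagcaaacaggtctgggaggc

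Windows were found for 31 of the 40 genes, 41 windows in all. An ISRE match was present in 21 of these genes and in 25 windows (61.0%), against 3.57% of the 35116 RefSeq windows of the same length. A GAS match was present in 9 genes and in 10 windows (24.4%), against 7.66% of all windows. Matches of both kinds overlapped in 5 windows of BST2, IFI27, IFITM1 and MX1. A match is a run of letters and not a measured binding site. Other spacings of the ISRE core are not counted. The genes without a match therefore include IFI35 and OAS1, whose printed windows hold GAAA runs at a closer spacing. With APO in C4-2B MDVR, the median log2 difference from DMSO was 0.21 over the 20 genes compared that had an ISRE match and 0.43 over the 9 that had a window and no match. In CWR22Rv1 the corresponding medians were 0.01 over 19 genes and 0.27 over 7 genes. With VER they were 0.09 and -0.14 in C4-2B MDVR and 0.19 and 0.42 in CWR22Rv1, and between the lines with DMSO both were 0.07. The genes with an ISRE match had the higher median in 1 of these 5 comparisons.

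The libraries held RNA of prostate epithelium in all 6 conditions. Each of 7 luminal prostate markers and 4 epithelial markers was at 1 FPKM or more in every library. The leukocyte marker PTPRC was listed at 0 in 5 libraries and reached 0.0323 FPKM in the other, and 5 leukocyte markers together summed to between 0.548 and 3.78 FPKM, most of it CD68. The endothelial marker PECAM1 was listed at 0 throughout, and 4 stromal markers summed to between 4.87 and 11.0 FPKM, most of it COL1A1. The deposited values give no read totals. Low values placed the relative depth of the other libraries between 1.15 and 1.64 times that of the C4-2B MDVR DMSO library. The C4-2B MDVR APO library was the deepest, at 1.64. Values near 0.1 FPKM rest on few fragments and are the least precise. Genes of the mitochondrial chromosome held 14.8% to 16.4% of FPKM in C4-2B MDVR, 25.7% in CWR22Rv1 with DMSO and with VER and 10.4% in CWR22Rv1 with APO. The part of that share in the differences of the CWR22Rv1 APO library was not tested.

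Most of the list was expressed at a low level in both lines, with a few abundant members. The highest of the 6 values was at least 10 FPKM for 12 genes, from 1 to under 10 for 20 genes and between 0.1 and 1 for 5 genes. ISG15, ADAR, STAT2 and IFITM3 were at or above 10 FPKM in all 6 libraries, and 17 genes were at or above 1 FPKM in all 6. IFI44L was listed at 0 in every library, and OAS2 and SAMD9L never exceeded 0.0259 and 0.0679 FPKM. The median over the 40 genes was 1.84, 2.36 and 1.62 FPKM in C4-2B MDVR with DMSO, APO and VER and 1.08, 2.10 and 1.43 FPKM in CWR22Rv1. Over the 29 to 35 genes of the list above 0.1 FPKM in a library the median was 3.92, 3.29 and 3.22 FPKM and 2.73, 4.73 and 2.94 FPKM, and over all genes above 0.1 FPKM it lay between 5.33 and 6.97 FPKM. In bulk RNA, fewer expressing cells and less RNA per cell cannot be told apart.

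**Figure D1:**
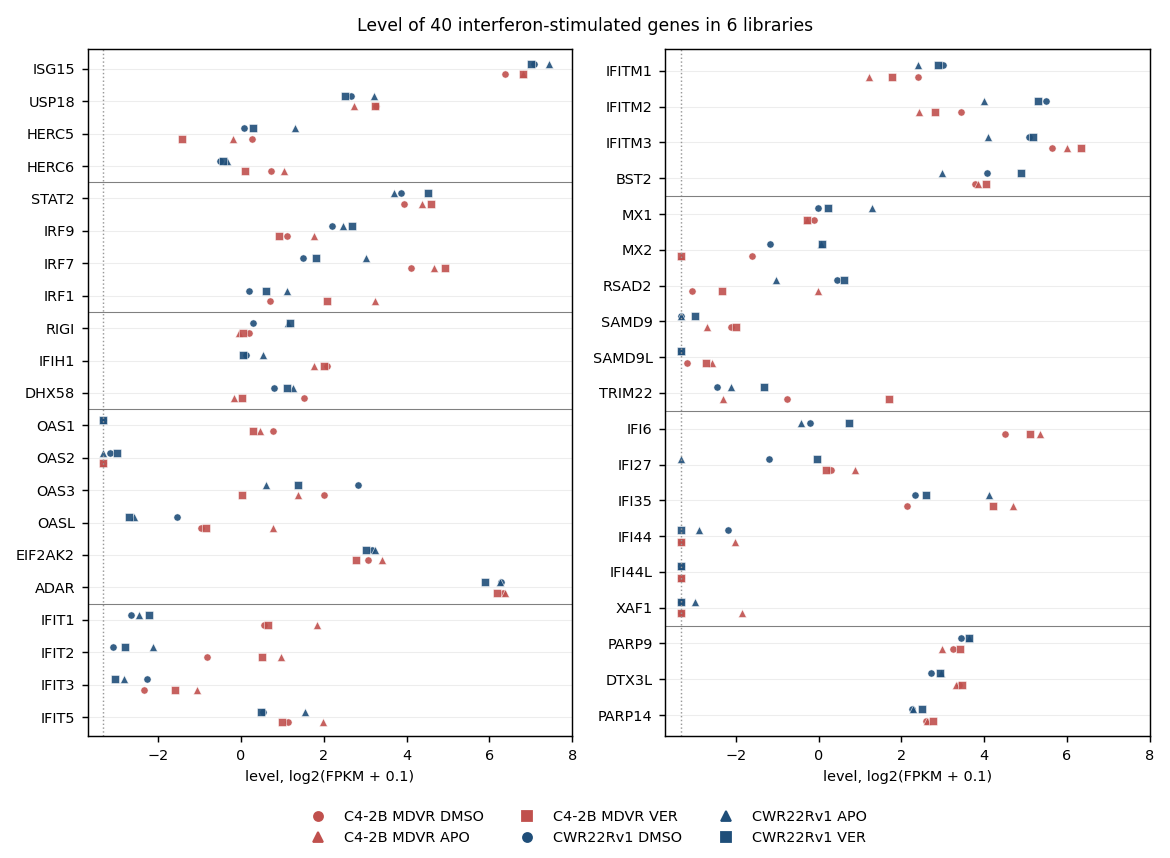
Level of each of the 40 genes in the 6 libraries as log2(FPKM + 0.1), grouped by role, with colour for the line and shape for the treatment; each point is 1 library and the dotted line is a value listed at 0. ISG15, between 83.4 and 175 FPKM, and ADAR, between 59.0 and 82.4 FPKM, lie at the right in every library, while IFI6 and OAS1 separate the lines.

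Differences were taken as log2(FPKM + 0.1) in the first library minus that in the second, a scale that understates the change of genes near or below 0.1 FPKM. A gene entered a comparison if any of the 3 libraries of that line (for the lines, either DMSO library) exceeded 0.1 FPKM, and it was called higher or lower past 2-fold. Where a library listed a gene at 0, no fold is given. With APO, C4-2B MDVR cells had more RNA of IRF1, IFI35, RSAD2, OASL and 3 IFIT genes and less of DHX58, TRIM22, IFITM1 and IFITM2. With VER they had more of TRIM22, IFI35, IRF1 and IFIT2 and less of OAS3, HERC5 and DHX58. With APO in C4-2B MDVR, 9 of 37 genes were higher and 5 lower, where 28.7% of all 20122 genes compared were called, 15.4% higher and 13.3% lower. The median of the 37 genes was 0.31, against 0.00 over all genes. With VER in the same line 4 genes were higher and 4 lower of 37, against 27.8% of all genes (14.4% higher, 13.3% lower), and the median was 0.00. The shares called were 37.8% with APO and 21.6% with VER, above that of all genes with APO and below it with VER. With a pseudocount of 1, which compresses low levels, IRF1, IFI35 and DHX58 stayed past 2-fold with APO, and IRF1, IFI35, TRIM22 and OAS3 with VER. These were 3 and 4 of 37 genes, against 9.98% and 9.37% of all genes. The share called was then below that of all genes with APO and above it with VER.

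CWR22Rv1 cells with APO had more RNA of IFI35, IRF7, MX1, HERC5, MX2 and IFIT5 and less of OAS3, IFITM2, RSAD2, BST2, OASL and IFITM3. With VER the called genes that had a value in both libraries were MX2, TRIM22 and IFI27 (higher) and OAS3 and OASL (lower). In CWR22Rv1, APO gave 6 higher and 7 lower of 34 genes compared, against 30.6% of all 21608 genes (13.8% higher, 16.8% lower). The median was 0.20 over the 34 genes and -0.01 over all genes. VER gave 3 higher and 3 lower of 34, against 19.8% of all genes (10.8% higher, 8.92% lower), with medians of 0.22 and 0.00. The shares called were 38.2% and 17.6%. With a pseudocount of 1, IRF7, IFI35, OAS3, IFITM2 and BST2 stayed past 2-fold with APO, and OAS3 with VER. Of all genes, 11.0% and 3.81% were called at that setting. At the 1.2-fold threshold that the study used, APO and VER gave 30 and 21 calls of 37 in C4-2B MDVR (73.1% and 70.5% of all genes) and 25 and 19 of 34 in CWR22Rv1 (74.8% and 64.4% of all genes).

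**Figure D2:**
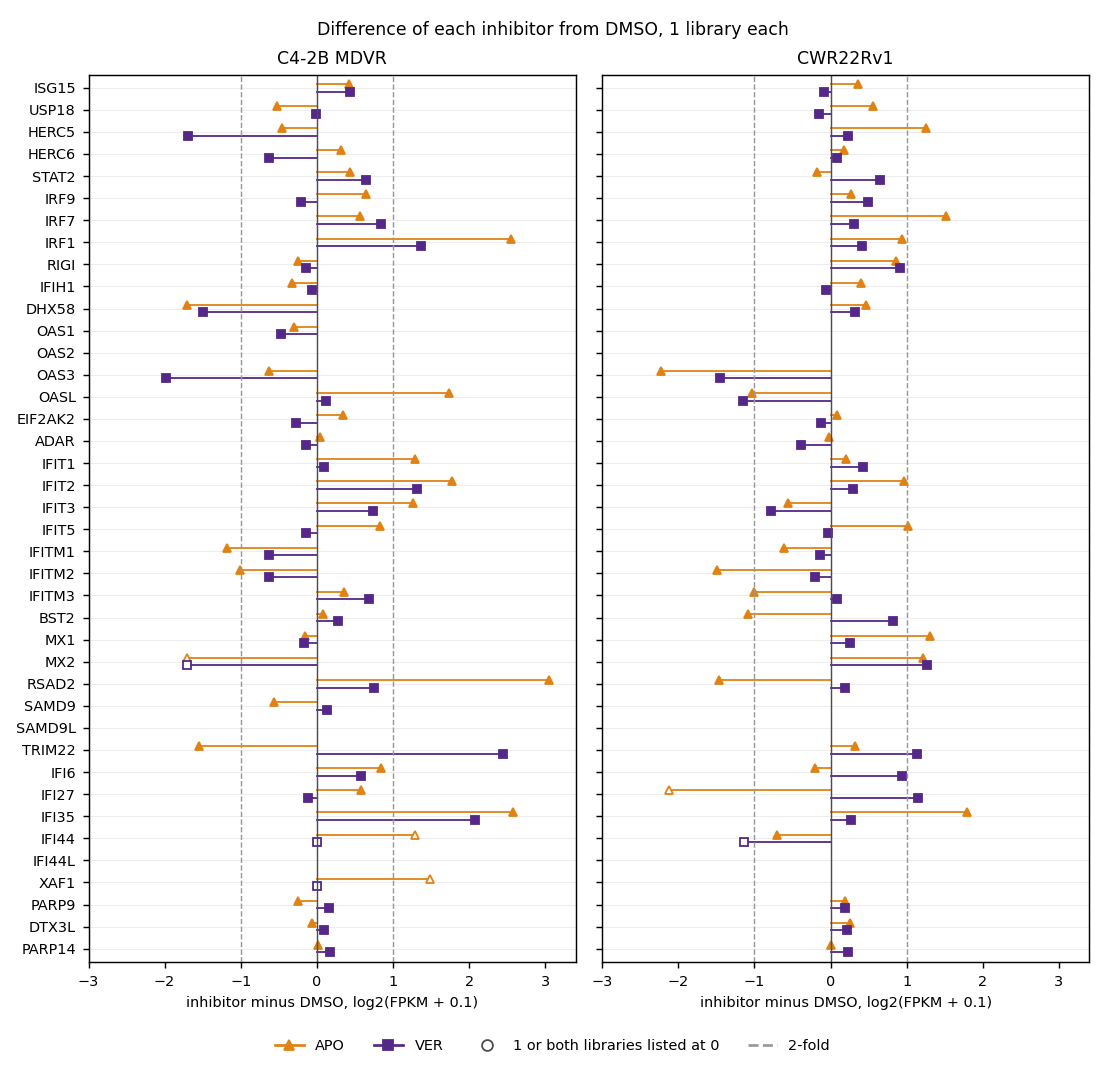
Difference of APO (triangles) and VER (squares) from DMSO of the same line for each gene, in log2(FPKM + 0.1), C4-2B MDVR at left and CWR22Rv1 at right; dashed lines mark 2-fold, open symbols a pair in which at least 1 library was listed at 0, and a row without symbols a gene that was not compared. RSAD2 with APO lies at 3.05 in C4-2B MDVR and at -1.46 in CWR22Rv1, and IFI35 with APO lies past 2-fold to the right in both.

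**Figure D3:**
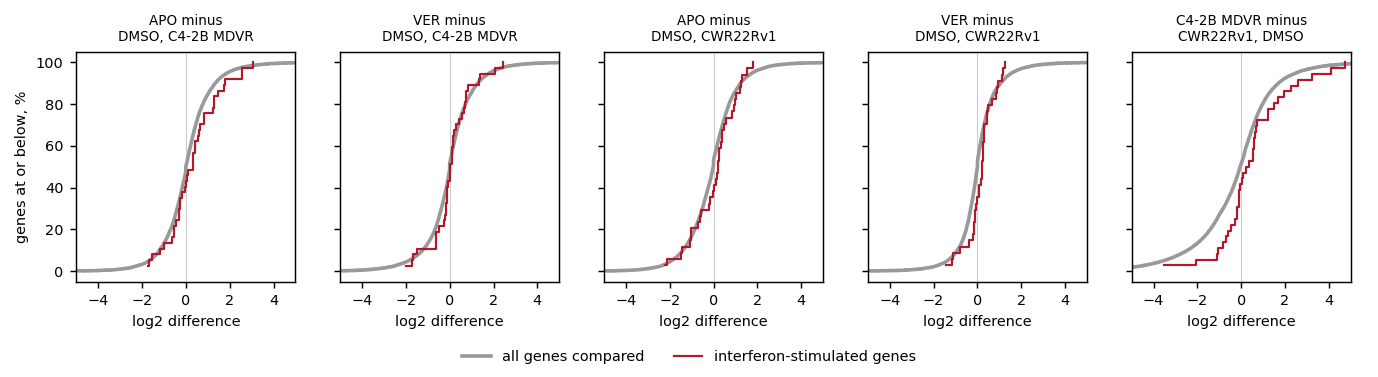
Cumulative share of genes (vertical axis, percent) at or below each log2 difference (horizontal axis) for the interferon-stimulated genes (red) and all genes compared (grey) in 5 comparisons of 1 library with another. The medians of the list and of all genes were 0.31 and 0.00 with APO and both 0.00 with VER in C4-2B MDVR, 0.20 and -0.01 with APO and 0.22 and 0.00 with VER in CWR22Rv1, and 0.26 and -0.05 between the lines.

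The ISG15 system attaches the small protein ISG15 to other proteins, and its modifier was the most abundant gene of the list. ISG15 was at 83.4, 112 and 112 FPKM in C4-2B MDVR with DMSO, APO and VER and at 136, 175 and 128 FPKM in CWR22Rv1. All 3 CWR22Rv1 values were above all 3 C4-2B MDVR values, and no inhibitor moved ISG15 past 2-fold, with log2 differences from DMSO between -0.09 and 0.43. HERC5, the ligase of this system, was at 1.10, 0.774 and 0.271 FPKM in C4-2B MDVR and at 0.948, 2.39 and 1.13 FPKM in CWR22Rv1. HERC5 therefore fell by 1.69 on the log2 scale with VER in C4-2B MDVR and rose by 1.25 with APO in CWR22Rv1. Its relative HERC6 was at 1.55, 1.95 and 0.970 FPKM in C4-2B MDVR and at 0.602, 0.692 and 0.644 FPKM in CWR22Rv1, with no overlap between the lines and no inhibitor past 2-fold. USP18, the protease that removes ISG15 and restrains the receptor, was at 9.43, 6.49 and 9.38 FPKM and at 6.22, 9.20 and 5.61 FPKM, with no difference past 2-fold. The USP18 values are uncertain, because 18.3% of the 75-base words of its transcripts also occur in USP41, which was at 116 FPKM in C4-2B MDVR with VER, at 25.8 FPKM in CWR22Rv1 with APO and at no more than 0.167 FPKM in the other 4 libraries. UBA7, the enzyme that activates ISG15, was between 1.02 and 1.70 FPKM in C4-2B MDVR and at 1.03, 0 and 0.472 FPKM in CWR22Rv1.

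Of the transcription factors of the response, IRF1 and IRF7 moved, while STAT2 and IRF9 did not pass 2-fold with either inhibitor. IRF1, a gene that interferon gamma induces and whose window printed above holds a GAS match, was at 1.53, 9.39 and 4.09 FPKM in C4-2B MDVR and at 1.04, 2.08 and 1.42 FPKM in CWR22Rv1. It rose by 2.54 with APO and by 1.36 with VER on the log2 scale in C4-2B MDVR, and its differences in CWR22Rv1 were 0.93 and 0.42. A noncoding gene on the opposite strand, C5orf56, overlaps IRF1 and was at no more than 2.92 FPKM. IRF7, the factor that amplifies type I interferon production, was at 17.0, 25.3 and 30.6 FPKM in C4-2B MDVR and at 2.73, 7.999 and 3.39 FPKM in CWR22Rv1. The lines did not overlap for IRF7, and it rose by 1.52 with APO in CWR22Rv1. STAT2 was at 15.3, 20.7 and 24.0 FPKM and at 14.5, 12.8 and 22.7 FPKM, with 0.64 as its difference with VER in each line. IRF9 was at 2.07, 3.29 and 1.78 FPKM in C4-2B MDVR and at 4.49, 5.43 and 6.33 FPKM in CWR22Rv1, higher in all 3 libraries of the latter. A readthrough gene on the same strand, AL136295.5, overlaps IRF9, holds 40.9% of its 75-base words and was at no more than 2.08 FPKM, so the IRF9 values are uncertain.

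Of the 3 cytosolic RNA sensors, DHX58 alone passed 2-fold with an inhibitor, and it did so in C4-2B MDVR. RIGI, which recognises RNA with a 5′ triphosphate, was at 1.04, 0.862 and 0.932 FPKM in C4-2B MDVR and at 1.12, 2.11 and 2.19 FPKM in CWR22Rv1. Its differences from DMSO were -0.24 and -0.14 in the first line and 0.86 and 0.91 in the second, none past 2-fold. IFIH1 (MDA5), the sensor of long double-stranded RNA, was at 4.14, 3.27 and 3.95 FPKM and at 0.987, 1.34 and 0.939 FPKM. The lines did not overlap for IFIH1, and its differences from DMSO were -0.33 and -0.07 in C4-2B MDVR and 0.41 and -0.07 in CWR22Rv1. DHX58 (LGP2), which modulates both, was at 2.78, 0.785 and 0.920 FPKM in C4-2B MDVR and fell by 1.70 with APO and by 1.5 with VER on the log2 scale. In CWR22Rv1 DHX58 was at 1.63, 2.29 and 2.06 FPKM, with differences of 0.46 and 0.32, and the libraries of the lines overlapped.

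Among the enzymes that act on or are activated by double-stranded RNA, ADAR and EIF2AK2 were even across the libraries and the OAS genes were not. ADAR, which edits adenosine to inosine, was at 80.2, 82.4 and 72.6 FPKM in C4-2B MDVR and at 77.3, 76.5 and 59.0 FPKM in CWR22Rv1, a ratio of 1.40 between the highest and the lowest library. EIF2AK2 (PKR), the kinase that halts translation, was at 8.27, 10.5 and 6.81 FPKM and at 8.84, 9.41 and 8.06 FPKM, a ratio of 1.54. With PARP14, at 1.43, these were the smallest ratios among the 17 genes at or above 1 FPKM in every library. OAS3, which makes oligoadenylate when it meets double-stranded RNA, was at 3.92, 2.49 and 0.920 FPKM in C4-2B MDVR and at 6.99, 1.41 and 2.49 FPKM in CWR22Rv1. The DMSO library was the highest of each line for OAS3, which fell by 2.23 with APO and by 1.45 with VER in CWR22Rv1 and by 1.98 with VER in C4-2B MDVR on the log2 scale. OAS1 was at 1.61, 1.28 and 1.13 FPKM in C4-2B MDVR and listed at 0 in all 3 CWR22Rv1 libraries. OASL, which has no synthase activity and assists RIGI, was at 0.412, 1.61 and 0.459 FPKM in C4-2B MDVR and at 0.240, 0.0663 and 0.0529 FPKM in CWR22Rv1. OASL rose by 1.74 with APO in C4-2B MDVR and fell by 1.03 with APO and by 1.15 with VER in CWR22Rv1 on the log2 scale, where all values were low.

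The IFIT proteins bind foreign RNA ends and block translation. With APO in C4-2B MDVR, 3 of the 4 genes were called higher, as were 15.4% of all genes. IFIT1 was at 1.37, 3.48 and 1.47 FPKM in that line and at 0.0583, 0.0825 and 0.113 FPKM in CWR22Rv1. IFIT2 was at 0.470, 1.85 and 1.32 FPKM and at 0.0171, 0.129 and 0.0439 FPKM. The APO library was the highest of the 6 for both, and no CWR22Rv1 library reached the lowest C4-2B MDVR library. IFIT3 was at 0.0989, 0.376 and 0.232 FPKM in C4-2B MDVR and no higher than 0.107 FPKM in CWR22Rv1. With APO in C4-2B MDVR these 3 genes rose by 1.29, 1.77 and 1.26 on the log2 scale, and IFIT2 rose by 1.31 with VER. With a pseudocount of 1 these differences were no longer past 2-fold. IFIT5 was at 2.10, 3.82 and 1.89 FPKM and at 1.34, 2.82 and 1.31 FPKM, so that the APO library was the highest of each line, and it rose by 1.02 with APO in CWR22Rv1. The lysosomal lipase gene LIPA covers IFIT1, IFIT2 and IFIT3 on the opposite strand and was at 33.7, 50.8 and 80.1 FPKM in C4-2B MDVR and at 17.2, 12.6 and 26.1 FPKM in CWR22Rv1. Whether the counting used strand is not stated, and the part of LIPA reads in the IFIT values was not tested.

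Of the 4 membrane factors that keep viruses from entering or leaving the cell, IFITM2, IFITM3 and BST2 were called lower with APO in CWR22Rv1. Of all genes, 16.8% were called lower in that comparison. IFITM1, with a difference of -0.61, was not called. IFITM3 was at 49.95, 63.6 and 80.6 FPKM in C4-2B MDVR and at 33.9, 16.8 and 36.1 FPKM in CWR22Rv1. IFITM2 was at 10.8, 5.32 and 6.96 FPKM and at 45.1, 15.9 and 39.2 FPKM. BST2 (tetherin), which holds budding virus at the cell surface, was at 13.6, 14.3 and 16.4 FPKM and at 16.6, 7.75 and 29.5 FPKM. The APO library was the lowest CWR22Rv1 library for all 3 genes, with log2 differences from DMSO of -1.01 for IFITM3, -1.49 for IFITM2 and -1.09 for BST2, of which IFITM2 alone stayed past 2-fold after rescaling to TPM. IFITM1 was at 5.17, 2.23 and 3.31 FPKM in C4-2B MDVR and at 8.0, 5.22 and 7.24 FPKM in CWR22Rv1. IFITM1 fell by 1.18 and IFITM2 by 1.01 with APO in C4-2B MDVR on the log2 scale, while IFITM3 and BST2 stayed within 2-fold there with either inhibitor. The gene models of IFITM1 and IFITM2 end at the same base, and 27.7% of the 75-base words of IFITM1 occur in IFITM2, so reads of these 2 genes may have been split between them.

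Of the antiviral effectors, RSAD2, MX1, MX2 and TRIM22 moved in different libraries. RSAD2 (viperin), which makes a chain-terminating nucleotide, was at 0.0194, 0.888 and 0.100 FPKM in C4-2B MDVR and at 1.26, 0.392 and 1.44 FPKM in CWR22Rv1. RSAD2 rose by 3.05 with APO in C4-2B MDVR and fell by 1.46 with APO in CWR22Rv1 on the log2 scale, from a low value with DMSO in the first line and the second highest of the 6 in the other. CMPK2, which overlaps RSAD2 on the opposite strand, was at 2.32, 4.04 and 1.80 FPKM and at 2.09, 1.39 and 1.14 FPKM. MX1, a GTPase that traps viral nucleocapsids, was at 0.827, 0.729 and 0.721 FPKM in C4-2B MDVR and at 0.886, 2.34 and 1.08 FPKM in CWR22Rv1, where it rose by 1.31 with APO. Its relative MX2 stayed under 1 FPKM, at 0.226 FPKM with DMSO and listed at 0 with either inhibitor in C4-2B MDVR and at 0.345, 0.936 and 0.968 FPKM in CWR22Rv1, a rise of 1.22 and 1.26. TRIM22, a ubiquitin ligase, was at 0.491, 0.101 and 3.13 FPKM in C4-2B MDVR and at 0.0833, 0.129 and 0.303 FPKM in CWR22Rv1. TRIM22 thus rose with VER by 2.45 and by 1.14 on the log2 scale and fell by 1.55 with APO in C4-2B MDVR. TRIM5 on the opposite strand overlaps TRIM22 and was between 6.96 and 18.8 FPKM, with no difference from DMSO above 0.60. SAMD9 did not exceed 0.152 FPKM and was listed at 0 in 2 of the CWR22Rv1 libraries.

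On the deposited scale, IFI35 was the gene of the list that rose past 2-fold with APO in both lines. It was at 4.28, 26.0 and 18.4 FPKM in C4-2B MDVR and at 4.91, 17.2 and 5.95 FPKM in CWR22Rv1. IFI35, which forms a complex with the STAT-interacting protein NMI, rose by 2.58 and 1.79 on the log2 scale with APO in the 2 lines and by 2.08 with VER in C4-2B MDVR, with 0.27 as its difference with VER in CWR22Rv1. IFI6, a small protein that inhibits cell death, was at 22.7, 40.7 and 34.1 FPKM in C4-2B MDVR and at 0.766, 0.649 and 1.56 FPKM in CWR22Rv1. It separated the lines more than the treatments, none of which passed 2-fold. IFI27 was at 1.13, 1.74 and 1.03 FPKM in C4-2B MDVR and at 0.337, 0 and 0.868 FPKM in CWR22Rv1, and rose by 1.15 with VER in the latter. IFI44 and XAF1 were detected at 0.145 and 0.180 FPKM in C4-2B MDVR with APO and listed at 0 in the other 2 libraries of that line. That APO library also had the highest relative depth, at 1.64. In CWR22Rv1 IFI44 was at 0.119, 0.0350 and 0 FPKM and XAF1 at 0, 0.0257 and 0 FPKM.

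PARP9, DTX3L and PARP14, which act together in ADP-ribosylation and ubiquitination downstream of interferon, were the steadiest group. PARP9 was at 9.40, 7.86 and 10.5 FPKM in C4-2B MDVR and at 10.7, 12.3 and 12.3 FPKM in CWR22Rv1. DTX3L, its partner from the same divergent promoter, was at 10.3, 9.90 and 11.0 FPKM and at 6.44, 7.68 and 7.48 FPKM, and PARP14 was at 5.95, 6.03 and 6.73 FPKM and at 4.71, 4.73 and 5.56 FPKM. No member of the group differed from DMSO by more than 0.25 in either direction on the log2 scale in any library. DTX3L and PARP14 were higher in all 3 C4-2B MDVR libraries, and PARP9 in all 3 CWR22Rv1 libraries.

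Between the lines with DMSO, C4-2B MDVR had more IFI6, IFIT1, IRF7, IFIT2 and IFIH1 and CWR22Rv1 had more RSAD2 and IFITM2. Of 36 genes compared, 10 were higher and 4 lower in C4-2B MDVR, against 46.6% of all 20903 genes, 19.4% higher and 27.2% lower. At 1.2-fold 27 of the 36 were called, against 82.4% of all genes. The share called in the list at 2-fold, 38.9%, was under that of all genes, with its higher calls more frequent than those of all genes and its lower calls less so. The median was 0.26 over the list and -0.05 over all genes. IFI6 was 4.72 higher on the log2 scale, IFIT1 3.21, IRF7 2.60, IFIT2 2.28, IFIH1 1.96, TRIM22 1.69, IFI27 1.5 and HERC6 1.24. OAS1, at 1.61 FPKM, and SAMD9, at 0.129 FPKM, were the other 2 higher genes and were listed at 0 in CWR22Rv1. RSAD2, IFITM2 and IRF9 were lower, with differences of -3.50, -2.05 and -1.08, and IFI44, at 0.119 FPKM in CWR22Rv1, had a value of 0 in the other line. With a pseudocount of 1, IFI6, IRF7, IFIH1, OAS1, IFIT1, RSAD2 and IFITM2 stayed past 2-fold, 7 of 36, against 22.4% of all genes.

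**Figure D4:**
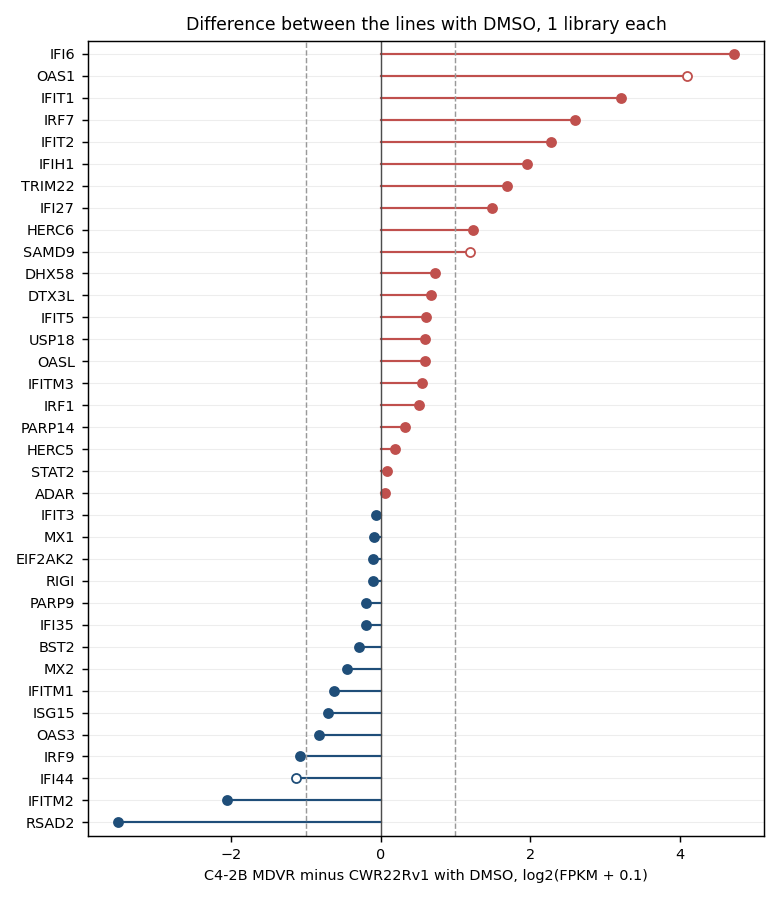
Difference between C4-2B MDVR and CWR22Rv1 with DMSO for the 36 genes compared, in log2(FPKM + 0.1), ordered by size; dashed lines mark 2-fold and open circles a gene listed at 0 in 1 of the libraries. The range runs from 4.72 for IFI6 to -3.50 for RSAD2, and 22 genes lie within 2-fold.

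Across the treatments, 13 of 37 genes were higher in all 3 C4-2B MDVR libraries than in any CWR22Rv1 library and 8 were lower in all 3. Over all 23671 genes above 0.1 FPKM the shares were 19.1% and 21.8%, and the list had 35.1% and 21.6%. The 13 genes were HERC6, IRF7, IFIH1, OAS1, OASL, IFIT1, IFIT2, IFITM3, SAMD9, IFI6, IFI27, DTX3L and PARP14. The 8 genes were ISG15, IRF9, RIGI, IFITM1, IFITM2, MX1, MX2 and PARP9. The 3 libraries of a line differ in treatment and are not replicates, so these are counts of ordered values.

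With the same inhibitor few genes moved past 2-fold in both lines. Of the 34 genes compared in both, IFI35 alone rose and IFITM2 alone fell with APO as deposited, 2.94% each. Of all 18059 genes, 5.24% and 5.27% were called in both lines. IRF1 and IFIT2, called higher with APO in C4-2B MDVR, were under 2-fold in CWR22Rv1, at 0.93 and 0.97. Rescaling to TPM added 2 calls with APO in CWR22Rv1, so the shared genes depend on the scale. With APO, OASL, MX2 and RSAD2 moved in opposite directions in the lines, 8.82% against 2.51% of all genes, and MX2 was one of those listed at 0. With VER, TRIM22 rose and OAS3 fell in both lines, against 3.43% and 2.66% of all genes, and MX2 moved in opposite directions, against 2.29%.

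VER and APO were also set directly against each other within a line. Among genes with a value in both libraries, they differed most for TRIM22, RSAD2, BST2, OASL and IFI35. In C4-2B MDVR 1 gene was higher and 8 lower with VER than with APO of 37, against 19.1% of all genes, 8.68% higher and 10.5% lower, and the median was -0.17, against -0.02. TRIM22 was 4.0 higher with VER on the log2 scale. RSAD2, OASL, OAS3, HERC5, IFIT1 and IRF1 were lower with VER, with differences of -2.30, -1.61, -1.34, -1.24, -1.19 and -1.18, and IFI44 and XAF1 were listed at 0 with VER. In CWR22Rv1 6 genes were higher and 5 lower with VER of 34, against 26.2% of all genes (15.6% higher, 10.5% lower). BST2, RSAD2, IFITM2, IFI6 and IFITM3 were higher, with differences of 1.91, 1.65, 1.29, 1.15 and 1.09, as was IFI27, listed at 0 with APO. IFI35, IRF7, IFIT5, MX1 and HERC5 were lower with VER, with differences of -1.52, -1.22, -1.05, -1.05 and -1.02. RSAD2 was lower with VER than with APO in the first line and higher in the second. At 1.2-fold 24 of 37 and 22 of 34 genes were called between the inhibitors, against 61.0% and 71.8% of all genes. The differences of IFITM3 after rescaling to TPM and of HERC5 after rescaling by the median ratio were no longer past 2-fold.

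Interferon genes themselves were hardly detected, while the kinases and every receptor chain except IFNLR1 were expressed in both lines. Of 21 interferon genes listed, 18 were at 0 in all 6 libraries. IFNB1 was at 0.0582 FPKM in C4-2B MDVR with APO, IFNE at 0.0453 and 0.0425 FPKM in CWR22Rv1 with DMSO and APO, and IFNL2 at 0.110 FPKM in CWR22Rv1 with APO, each listed at 0 elsewhere. The C4-2B MDVR APO library was also the deepest. The receptor subunits IFNAR1 and IFNAR2 lay between 11.6 and 20.0 FPKM and between 9.90 and 13.0 FPKM over the 6 libraries. IFNGR1, the binding chain of the interferon gamma receptor, was at 20.2, 41.1 and 30.3 FPKM in C4-2B MDVR and at 15.1, 30.7 and 27.8 FPKM in CWR22Rv1, and rose by 1.02 with APO in each. IFNGR2 was between 13.4 and 27.8 FPKM. IFNLR1, the specific chain of the lambda receptor, was listed at 0 in all 3 C4-2B MDVR libraries and was at 2.88, 2.30 and 2.31 FPKM in CWR22Rv1. IL10RB, the shared chain of that receptor, was at 6.87, 14.8 and 17.4 FPKM and at 17.9, 22.9 and 27.6 FPKM, and rose in C4-2B MDVR by 1.10 with APO and by 1.33 with VER. With DMSO, IL10RB was lower in C4-2B MDVR by a log2 difference of -1.37.

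Of the kinases and STAT3, JAK2 rose with APO in both lines. JAK2 was at 2.64, 6.80 and 4.92 FPKM in C4-2B MDVR and at 2.23, 5.48 and 3.04 FPKM in CWR22Rv1, log2 differences of 1.33 and 1.26 with APO. JAK1 was at 2.13, 1.88 and 0.944 FPKM and at 1.89, 2.39 and 2.43 FPKM, and fell by 1.09 with VER in C4-2B MDVR. TYK2 was at 20.7, 20.7 and 17.5 FPKM and at 49.3, 20.4 and 34.9 FPKM, and fell by 1.27 with APO in CWR22Rv1. With DMSO the line difference of TYK2 was -1.25. STAT3 separated the lines, with 44.3, 45.5 and 53.8 FPKM in C4-2B MDVR and 9.22, 12.3 and 10.7 FPKM in CWR22Rv1, a log2 difference of 2.25 with DMSO. SOCS1, the feedback inhibitor of the JAK kinases, was at 0.492, 7.43 and 1.85 FPKM in C4-2B MDVR, a rise of 3.67 with APO and 1.72 with VER on the log2 scale, and at 1.18, 1.37 and 0.771 FPKM in CWR22Rv1. With DMSO, SOCS1 was the lower in C4-2B MDVR, with a difference of -1.12.

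Of the adaptors and sensors of nucleic acids, 5 of 11 compared were called between the lines with DMSO (45.5%, against 46.6% of all genes). All 5 were higher in C4-2B MDVR and 0 lower, where 19.4% of all genes were higher and 27.2% lower. Their median was 0.89, against -0.05 over all genes. STING1, the adaptor of cyclic dinucleotide sensing, was at 2.61, 2.46 and 3.78 FPKM in C4-2B MDVR and at 0, 0 and 0.0171 FPKM in CWR22Rv1, and CGAS, the sensor upstream of it, was listed at 0 in every library. CGAS and UBA7 fall outside the rule for named genes and were chosen after their values were seen. TLR3, the endosomal receptor of double-stranded RNA, was at 0.566, 2.29 and 2.43 FPKM and at 0.215, 0.302 and 0.695 FPKM, and rose with VER in both lines, by 1.92 and 1.34. With DMSO the adaptors MYD88, TRAF3 and TRIM25 were higher in C4-2B MDVR by 1.73, 1.5 and 1.13 on the log2 scale, as were the SUMO ligase PIAS1, by 1.28, and TLR3, by 1.08. Of 51 pathway genes listed, 5 were higher and 1 lower of 27 compared with APO in C4-2B MDVR (22.2%, against 28.7% of all genes), and 3 and 1 with VER (14.8% against 27.8%). In CWR22Rv1 3 were higher and 2 lower of 28 with APO (17.9% against 30.6%), and 1 and 0 with VER (3.57% against 19.8%). Between the lines 7 were higher and 4 lower in C4-2B MDVR of 28 (39.3% against 46.6%), so the share called was below that of all genes in these 5 comparisons.

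**Figure D5:**
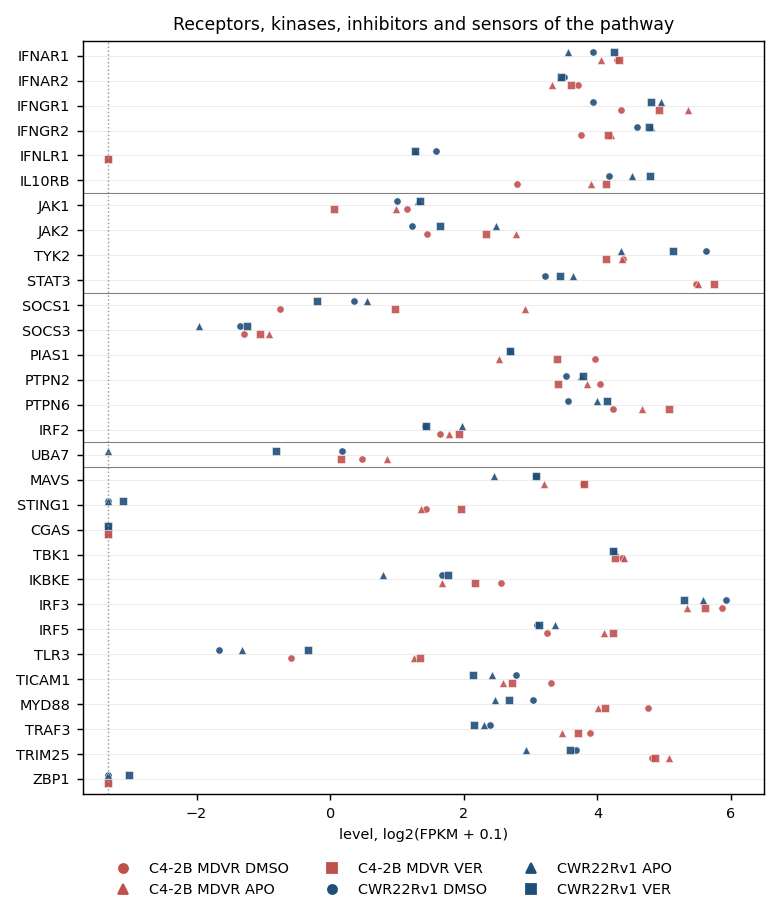
Level of 30 receptors, kinases, inhibitors, sensors and adaptors of the pathway in the 6 libraries as log2(FPKM + 0.1), with colour for the line and shape for the treatment; the dotted line is a value listed at 0. IFNLR1 and STING1 are listed at 0 in 3 and in 2 libraries, and SOCS1 with APO in C4-2B MDVR, at 7.43 FPKM, stands apart from its other 5 values.

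A further 40 interferon-induced genes were listed beside the 40 described, and 33 were compared in each contrast. With APO, 9 were higher and 0 lower in C4-2B MDVR (27.3%, against 28.7% of all genes, 15.4% higher and 13.3% lower). In CWR22Rv1, 4 were higher and 3 lower (21.2% against 30.6% of all genes, 13.8% higher and 16.8% lower). With VER the counts were 7 and 5 in C4-2B MDVR (36.4% against 27.8% of all genes, 14.4% higher and 13.3% lower). In CWR22Rv1 they were 4 and 0 (12.1% against 19.8% of all genes, 10.8% higher and 8.92% lower). ISG20, an exonuclease, was at 2.64, 21.6 and 8.47 FPKM in C4-2B MDVR and at 6.32, 66.05 and 12.4 FPKM in CWR22Rv1, a rise of 2.99 and 3.37 with APO. NMI, the partner of IFI35, was at 0.655, 2.48 and 1.0 FPKM and at 0.151, 0.726 and 0.478 FPKM, and rose by 1.77 and 1.72 with APO. These 2 genes met the rule for naming with APO, a value of 1 FPKM and the same call in both lines. The rise that they share with IFI35 therefore follows from how they were chosen. Of all genes compared in both lines, 5.24% were called higher with APO in both. Between the lines with DMSO 15 were higher and 6 lower in C4-2B MDVR (63.6%, against 46.6% of all genes, 19.4% higher and 27.2% lower), with a median of 0.80, against -0.05 over all genes. Among the 16 that reached 1 FPKM and passed 2-fold, SP100, LGALS3BP and UBE2L6 were the most different, by 4.23, 3.64 and 3.53. PARP10, LY6E, PARP12, GBP1, TRIM21, NMI and GBP2 were higher by 2.46, 2.44, 2.38, 1.93, 1.86, 1.59 and 1.58, and CD274, ZNFX1 and ZC3HAV1 by 1.43, 1.3 and 1.02. PLSCR1, ISG20 and TDRD7 were lower, with differences of -2.20, -1.23 and -1.19.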

How the data were processed

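Polyadenylated RNA of 2 prostate cancer cell lines was sequenced after DMSO, APO or VER, with 1 library per condition. Groups come from the sample labels, which name a stranded kit, while the study's methods name TruSeq. The authors deposited 1 FPKM value per gene and library. The submitters' processing notes name HISAT, Cufflinks, Cuffnorm and GRCh38, and the methods also name StringTie. The annotation release is not given in the sources used here. FPKM carries no read totals, so no count test was possible and no counting error is given. Relative depth was read from the ratios of low FPKM values between libraries, and 0 of the 738 genes above 10 FPKM in 5 libraries were listed at 0 in the other.

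Identifiers were matched to GENCODE 29 (57047 of 60658), which gave gene positions, overlaps and shared 75-base words. Differences of log2(FPKM + 0.1) were computed for 7 pairs of libraries and called past 2-fold, without p-values. Members and lists were chosen with earlier results of these data known. Genes of the list at 1 FPKM or more in any library are given with all 6 values. Pathway and other induced genes are named if they reached 1 FPKM and passed 2-fold alike in both lines or between the lines, as are receptors, kinases, STAT3 and detected interferons. Further genes of the fixed pathway and marker lists are not reported here. Alternatives were pseudocounts of 0.01 and 1, 3 filters on low values, 2 rescalings and the 1.2-fold threshold. The functions were tested on simulated data. Python 3.11.15, pandas 2.3.3, numpy 2.4.6 and matplotlib 3.10.9 were used.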

Additional observations from a re-analysis of the deposited data

Results flagged for a closer look

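With APO, RSAD2 and OASL moved past 2-fold in opposite directions in the lines. RSAD2 differed from DMSO by 3.05 in C4-2B MDVR and by -1.46 in CWR22Rv1 on the log2 scale, 4.51 apart. OASL differed by 1.74 and by -1.03, 2.77 apart. Each line had 1 library per condition and the difference between the lines was not tested. RSAD2 was at 0.0194 FPKM in the C4-2B MDVR DMSO library and OASL at 0.0663 FPKM in the CWR22Rv1 APO library, levels at which few fragments set the value. With a pseudocount of 1 neither gene passed 2-fold in either line.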

How the results depend on the processing

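No called gene of the list of 40 turned direction under any alternative. For that list, 37 of 56 recomputed counts of calls and 36 of 49 recomputed medians stayed close to the values in the text. Calls of the pathway and other induced genes were not recomputed. Close means within 1.5 times for a count and a shift under 0.1 on the log2 scale for a median. A pseudocount of 1 compresses genes near or under 1 FPKM. In C4-2B MDVR it left 3 calls of 37 with APO (9.98% of all genes) and 4 with VER (9.37%). In CWR22Rv1 it left 5 of 34 with APO (11.0%) and 1 with VER (3.81%). Between the lines it left 7 of 36 (22.4%). Between VER and APO it left 2 in C4-2B MDVR (3.99%) and 5 in CWR22Rv1 (7.85%). The same pseudocount moved the median to 0.20 with APO in C4-2B MDVR, 0.08 with APO in CWR22Rv1 and 0.14 between the lines. The 1.2-fold threshold gave 30 and 21 calls in C4-2B MDVR, 25 and 19 in CWR22Rv1, 27 between the lines and 24 and 22 between VER and APO. Requiring 0.1 FPKM in all libraries compared fewer genes. It gave 9 calls of 31 with APO in C4-2B MDVR (19.6% of all genes, median of the list 0.08). With VER in CWR22Rv1 it gave 2 of 27 (10.0%), and between the lines 7 of 28 (32.0%, median 0.14). The median between VER and APO in C4-2B MDVR was then -0.01. Requiring 1 FPKM in at least 1 library gave 9 calls of 30 with APO in C4-2B MDVR (21.2%, median 0.20). With VER in CWR22Rv1 it gave 1 of 25 (11.0%). Without a filter the median was 0.20 with APO in C4-2B MDVR and 0.11 between the lines. For APO, rescaling to TPM shifted the median of all genes that exceeded 1 FPKM to -0.12 (as deposited 0.02) in C4-2B MDVR and to 0.10 (as deposited -0.01) in CWR22Rv1. It moved the medians of the list to 0.17 and 0.31 for APO, and to -0.03 and -0.23 between VER and APO in C4-2B MDVR and CWR22Rv1. After the same rescaling, 8 genes were higher and 5 lower of 34 with APO in CWR22Rv1, against 6 and 7 as deposited. Of all genes, 32.7% were called after it and 30.6% as deposited. No paired analysis was possible because each condition has 1 library. Depth limits values near 0.1 FPKM most.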
